A study of Mus musculus with 10 samples.

Results

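The 8 genes described here encode 5 caspases (Casp1, Casp2, Casp6, Casp8 and Casp9), the apoptosome scaffold Apaf1 and the caspase inhibitors Cflar and Xiap. They were taken as a named list from 18194 gene symbols with a probe set of their own. The list was chosen with earlier results of these data known. All 8 genes were among the 17204 tested. Expression was measured on 10 Affymetrix mouse oligonucleotide arrays, 1 per sample of B cells sorted from spleen. Naive B cells (n = 4) came from unimmunized Balb/c mice. Germinal centre (GC) B cells came from 2 lines of Balb/c background mice that carry an immunoglobulin heavy chain transgene, VH186.2-Tg in the B1-8 line (n = 3) and V23-Tg in the V23 line (n = 3), with the endogenous JH locus deleted in both. These mice received 50 µg of NP-CGG, a hapten on a carrier protein, in alum, and after 14 days λ+ PNA+ B220+ cells were sorted. For these hapten-binding transgenes B1-8 is known to give the higher affinity. The labels give no transgene for the naive mice, so that immunization, transgene and stain cannot be told apart in comparisons with naive cells. The labels also do not say whether replicates are separate animals. If the replicates are not separate animals, the p-values may measure technical spread. Dead cells were gated out by scatter and propidium iodide, and cells were held cold in sodium azide.

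Caspases are proteases that wait in the cell as inactive precursors. Casp8 is activated at death receptors such as Fas, where Cflar, a relative of Casp8 that lacks its catalytic activity, competes for the same adaptor. Casp9 is activated on a wheel of Apaf1 molecules once cytochrome c leaves the mitochondria, and Xiap binds and blocks Casp9 and other caspases. Casp2 is an initiator linked to DNA damage and to faults in cell division, Casp6 cleaves lamins, and Casp1 is the inflammasome protease that matures interleukin precursors. GC B cells are known to die readily when they are not rescued by antigen and T cell help. All of these proteins are also controlled by cleavage and binding, which an array of RNA does not measure.

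The values are log2 probe set signals. Array medians lay between 6.81 and 7.04 in naive, between 6.76 and 6.85 in B1-8 and between 6.70 and 6.77 in V23 samples. The Actb 3′ minus 5′ difference, a measure of RNA quality, was 1.46 ± 0.17 (SD) in naive (n = 4), 0.98 ± 0.20 in B1-8 (n = 3) and 0.78 ± 0.08 in V23 samples (n = 3), with a two-sided exact permutation p of 0.00952 for GC against naive, the smallest this design allows (adjusted p = 0.019 over 2 such tests). Markers of B cells were high in every group, with a log2 summed signal of 16.35 to 16.53 in naive and 15.97 to 16.33 in GC samples, and 3 of 6 tested markers fell. All 8 tested neutrophil markers rose, their log2 summed signal going from 11.40 to 13.77 in naive to 15.21 to 15.92 in GC samples, and so did all 7 mitosis genes (11.67 to 13.26, then 14.87 to 15.21). Of 8 macrophage markers 1 rose and 2 fell, and of 7 T cell markers 1 fell. NK cell markers fell in 3 of 5 cases (log2 summed signal 10.73 to 11.33 in naive and 9.78 to 10.11 in GC samples) and platelet markers in 3 of 5 (9.60 to 9.99 and 9.41 to 9.55). Among dendritic cell genes 1 of 5 was called higher and 2 lower, among erythroid genes 1 of 3 lower, and among plasma cell genes 2 of 5 higher and 1 lower (13.41 to 13.93 and 14.41 to 14.58). The lists hold few genes. B cell, macrophage, T cell, NK cell, platelet, dendritic cell, erythroid and plasma cell counts are thus not set apart from shares over all genes. For the mean of both GC groups these shares were 20.5% higher and 21% lower (limma, adjusted p under 0.05). Naive replicate 4 was the highest naive sample for neutrophil markers (13.77) and naive replicate 2 for mitosis genes (13.26), with replicate 4 next (12.40). The part of RNA quality, other cell types and cell division in the differences below was not tested. In bulk samples such as these, fewer cells of a type and less RNA per cell cannot be told apart.

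On the probe sets used, the apoptosome genes Casp9 and Apaf1 and the initiator Casp2 were higher in GC than in naive B cells. The inhibitors Cflar and Xiap were lower. These calls are for the mean of both GC groups: Casp9 did not pass in V23 alone, nor Apaf1 in B1-8 alone. Of the 7 Xiap probe sets 1 fell and 1 rose, and the sign of Xiap turned with the mean of its probe sets. Casp1, Casp6 and Casp8 did not pass the test. With the mean of both GC groups set against naive, 3 of 8 members rose and 2 fell (limma, adjusted p under 0.05), where 20.5% of all tested genes rose, 21% fell and 41.5% did either. With 8 genes these counts do not set the members apart from other genes, and the differences were small. The median size of the members' differences was 0.34 (log2), against 0.45 over all tested genes, and 23.1% of all genes had a larger difference than the largest among the members. No member changed by 2-fold or more in the mean of both GC groups (0 of 8). Over all genes 15.2% had both a change of at least 2-fold and an adjusted p under 0.05 (limma). At an unadjusted p under 0.05 by limma were 6 of 8 members and 48.4% of all genes.

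**Figure D1:**
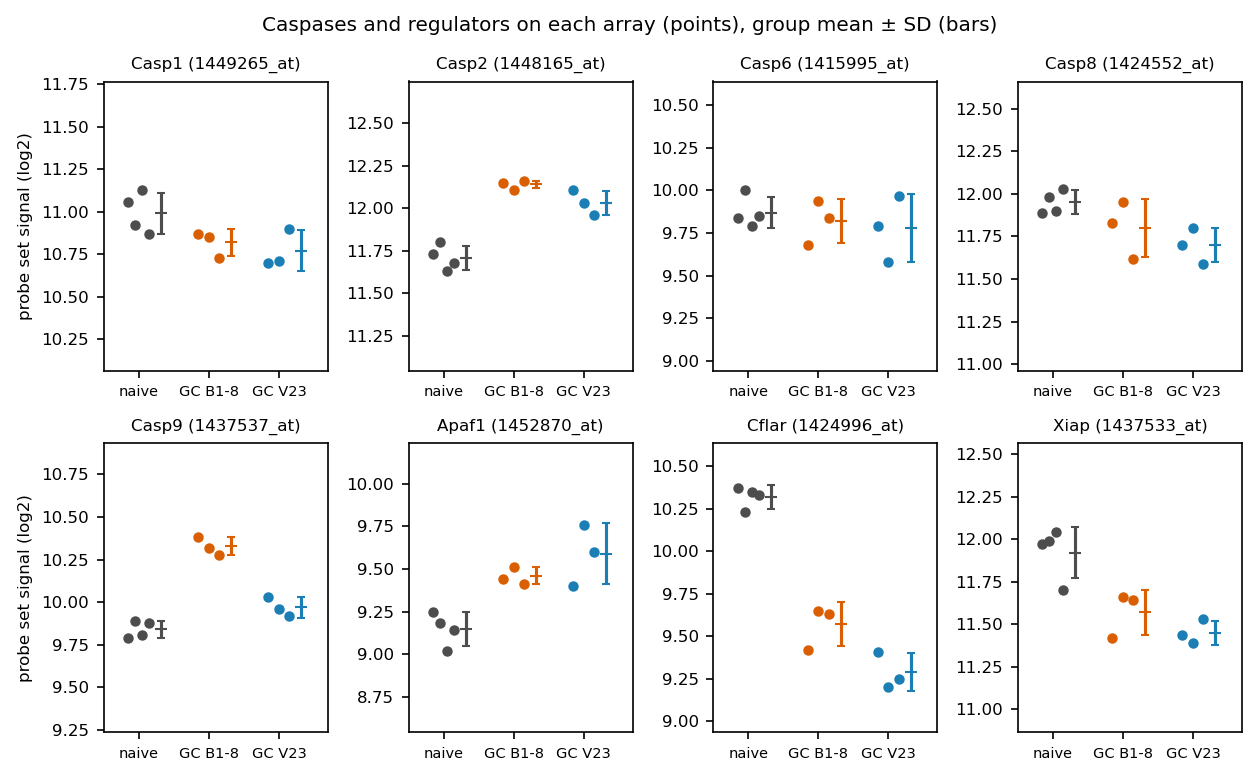
Signal (log2) of the probe set used for each of the 8 genes, with 1 point per array for naive (n = 4), GC B1-8 (n = 3) and GC V23 (n = 3) and the group mean ± SD beside the points. The y axes have the same span but different positions. Casp2, Casp9 and Apaf1 have every GC array above every naive array, Cflar and Xiap every GC array below, and Casp1, Casp6 and Casp8 overlap.

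The signals of GC and naive arrays did not overlap for the 5 genes called. All 6 GC arrays were above all 4 naive arrays for Casp2, Casp9 and Apaf1, as for 17% of all tested genes, and below them for Cflar and Xiap, as for 18.5% (35.5% in either direction).

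Casp9 (1437537_at), the initiator caspase of the mitochondrial pathway, was measured at 9.79, 9.89, 9.81 and 9.88 on the naive arrays, at 10.38, 10.32 and 10.28 on the B1-8 arrays and at 10.03, 9.96 and 9.92 on the V23 arrays. All GC arrays were above the naive arrays, and the 3 B1-8 arrays were above the 3 V23 arrays. Casp9 rose in B1-8 by 0.49 ± 0.08 (SE, log2; limma adjusted p = 0.00137), a 1.40-fold change. In V23 the difference was 0.13 ± 0.08 (adjusted p = 0.237), with a 95% interval from −0.05 to 0.30; it passed with quantile normalization (0.23, adjusted p = 0.0369) and with the mean of its 3 probe sets (0.66, adjusted p = 0.0103).

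Apaf1 (1452870_at), the scaffold on which Casp9 is activated, was at 9.25, 9.18, 9.02 and 9.14 in naive, at 9.44, 9.51 and 9.41 in B1-8 and at 9.40, 9.76 and 9.60 in V23 samples. The lowest GC array lay only slightly above the highest naive array. Apaf1 rose in V23 by 0.44 ± 0.11 (limma adjusted p = 0.0103), and the difference in B1-8 was 0.31 ± 0.11 (adjusted p = 0.0521), which passed with quantile normalization (0.49, adjusted p = 0.00756) and with the mean of both probe sets (0.45, adjusted p = 0.0136). For the mean of both lines it rose by 0.37 ± 0.09 (adjusted p = 0.00895), a call that ended without naive replicates 2 and 4 (0.39 ± 0.13, adjusted p = 0.0566); in V23 the adjusted p was then 0.0518.

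Casp2 (1448165_at) was at 11.73, 11.80, 11.63 and 11.68 in naive, at 12.15, 12.11 and 12.16 in B1-8 and at 12.11, 12.03 and 11.96 in V23 samples. The lowest GC array, at 11.96, lay clear of the highest naive array, at 11.80. It rose by 0.43 ± 0.08 in B1-8 (limma adjusted p = 0.00326) and by 0.33 ± 0.08 in V23 (adjusted p = 0.0117), or 1.35-fold and 1.25-fold. The V23 call ended with quantile normalization (0.19, adjusted p = 0.0834).

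The promoters of these 3 genes are shown with that of Cflar, which moved the other way, because they are the start sites of the members that changed; Xiap, which has 3 annotated windows, is left out. Each runs from 250 bases before the annotated start to 30 bases after it, on the gene's own strand, from RefSeq on GRCm38.p6, and all 8 members matched a window by symbol. The positions are chr6:42264735-42265014 on the plus strand for Casp2, chr4:141793362-141793641 on the plus strand for Casp9, chr10:91082714-91082993 on the minus strand for Apaf1 and chr1:58711241-58711520 on the plus strand for Cflar. Capitals mark matches to any of 5 motifs searched on both strands.
Casp2: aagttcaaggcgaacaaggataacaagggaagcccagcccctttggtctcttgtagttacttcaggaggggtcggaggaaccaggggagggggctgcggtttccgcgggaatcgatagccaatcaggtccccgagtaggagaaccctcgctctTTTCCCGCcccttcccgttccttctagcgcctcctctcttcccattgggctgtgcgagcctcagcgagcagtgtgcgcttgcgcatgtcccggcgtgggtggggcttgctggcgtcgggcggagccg
Casp9: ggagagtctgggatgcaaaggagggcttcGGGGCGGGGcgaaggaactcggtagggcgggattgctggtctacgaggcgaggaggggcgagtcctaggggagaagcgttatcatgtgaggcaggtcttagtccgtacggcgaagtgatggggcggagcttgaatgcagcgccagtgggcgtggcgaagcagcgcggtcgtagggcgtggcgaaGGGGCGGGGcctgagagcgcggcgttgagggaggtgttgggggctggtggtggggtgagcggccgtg
Apaf1: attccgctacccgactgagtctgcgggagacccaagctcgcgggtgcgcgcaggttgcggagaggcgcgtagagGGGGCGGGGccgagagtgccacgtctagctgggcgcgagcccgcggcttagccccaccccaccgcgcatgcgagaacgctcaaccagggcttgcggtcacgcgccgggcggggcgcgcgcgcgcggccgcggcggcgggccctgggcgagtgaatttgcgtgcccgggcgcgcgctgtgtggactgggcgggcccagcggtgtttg
Cflar: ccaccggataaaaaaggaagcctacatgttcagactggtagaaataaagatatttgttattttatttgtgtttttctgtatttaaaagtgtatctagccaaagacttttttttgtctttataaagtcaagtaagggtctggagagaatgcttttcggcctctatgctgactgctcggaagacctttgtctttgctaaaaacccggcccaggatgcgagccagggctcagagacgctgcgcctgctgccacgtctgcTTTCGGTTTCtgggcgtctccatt
The motifs were an E2F site (TTTCCCGC, TTTGGCGC, TTTGCCGC or TTTCGCGC), a GC box (GGGGCGGGG), the E-box CACGTG, an interferon element (GAAA, any 2 bases, GAAA) and the NF-kB motif. No matches overlapped in these 4 windows. The Casp2 window held 1 E2F match, 97 bases before the start, which 2.12% of all 32851 windows of this length hold. The Casp9 window held 2 GC boxes and the Apaf1 window 1, a match found in 11.2% of windows. The Cflar window held 1 interferon element just after the start, in the reverse orientation, as 3.28% of windows do, and no NF-kB match (7.94% of windows). GC content was 62.5% for Casp2, 67.1% for Casp9 and 75% for Apaf1, and 43.9% for Cflar, where the median over all windows was 52.5%. Among the members not shown, Casp6 had 2 GC boxes and a GC content of 61.8% and did not pass the test. Casp1 and Casp8 were at 48.2% and 41.1%. The Xiap windows were at 60.4%, 48.9% and 38.6%, the second with a GC box, though Xiap was called lower. These features therefore do not set apart the members that rose. A match is a string of letters and says nothing of binding, which was not measured.

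Cflar (1424996_at), the inhibitor that keeps Casp8 in check at death receptors, had the largest difference of the 8 genes. It was at 10.37, 10.23, 10.35 and 10.33 in naive, at 9.42, 9.65 and 9.63 in B1-8 and at 9.41, 9.20 and 9.25 in V23 samples. The highest GC array, at 9.65, lay well below the lowest naive array, at 10.23. Cflar fell by 0.76 on the log2 scale in B1-8 (SE 0.10, limma adjusted p = 4.64e-04) and by 1.04 in V23 (SE 0.10, adjusted p = 6.82e-05). The V23 change was 2.05-fold, the only one of at least 2-fold among the 8 members in either line. Over all genes, 13% in B1-8 and 15.8% in V23 had both such a change and an adjusted p under 0.05. Both Cflar calls held under every alternative run.

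Xiap (1437533_at), the inhibitor of Casp9 and other caspases, was at 11.97, 11.99, 12.04 and 11.70 in naive, at 11.42, 11.66 and 11.64 in B1-8 and at 11.44, 11.39 and 11.53 in V23 samples. The gap was narrow: naive replicate 4, at 11.70, lay next to the upper B1-8 arrays. Xiap fell by 0.35 in B1-8 (SE 0.11, limma adjusted p = 0.0384) and by 0.47 in V23 (SE 0.11, adjusted p = 0.00913). These calls depend on the processing: both ended with median centring (adjusted p = 0.175 and 0.0953), and with the mean of all its probe sets the sign turned, to 0.26 in B1-8 (adjusted p = 0.183) and 0.19 in V23 (adjusted p = 0.305). The B1-8 call also ended without any one of naive replicates 1, 2 and 3, B1-8 replicates 1, 2 and 3 and V23 replicates 1 and 2, with adjusted p between 0.0526 and 0.132.

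Casp8 (1424552_at), which Cflar inhibits, was at 11.89, 11.98, 11.90 and 12.03 in naive, at 11.83, 11.95 and 11.62 in B1-8 and at 11.70, 11.80 and 11.59 in V23 samples. V23 arrays lay below all naive arrays, while B1-8 replicate 2 lay among them. The difference was −0.15 ± 0.10 in B1-8 (limma adjusted p = 0.322) and −0.25 ± 0.10 in V23 (adjusted p = 0.0911, 95% interval −0.49 to −0.01). It passed the test in V23 with quantile normalization (−0.40, adjusted p = 0.0145) and with an intensity trend (adjusted p = 0.0287).

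Casp6 (1415995_at), a lamin-cleaving caspase, was at 9.84, 9.79 and 9.85 in naive replicates 1, 3 and 4 and close to 10 in replicate 2, at 9.68, 9.94 and 9.84 in B1-8 and at 9.79, 9.58 and 9.97 in V23 samples. The groups overlapped fully. The differences were −0.05 ± 0.12 in B1-8 (limma adjusted p = 0.793) and −0.09 ± 0.12 in V23 (adjusted p = 0.589), with 95% intervals of −0.32 to 0.22 and −0.36 to 0.18; their sign turned with quantile normalization and with centring. With the mean of its 2 probe sets Casp6 passed the test in V23, at −0.53 (adjusted p = 0.021), and was at −0.18 in B1-8 (adjusted p = 0.416).

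Casp1 (1449265_at), the inflammasome protease, was at 11.06, 10.92, 11.13 and 10.87 in naive, at 10.87, 10.85 and 10.73 in B1-8 and at 10.70, 10.71 and 10.90 in V23 samples. The 3 B1-8 arrays lay at or below the lowest naive value, and V23 replicate 3 lay inside the naive range. The difference was −0.18 ± 0.10 in B1-8 (limma adjusted p = 0.22) and −0.23 ± 0.10 in V23 (adjusted p = 0.116). For the mean of both lines it was −0.20 ± 0.09 (adjusted p = 0.0926), and it passed with quantile normalization (−0.24, adjusted p = 0.0461). Myeloid cells also express Casp1, and the neutrophil markers were higher in GC samples, as given above; naive replicate 4, with the most neutrophil marker signal of the naive samples, had the lowest naive Casp1 value (10.87). The part of these cells in the Casp1 signal was not tested.

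Set against each other on the same array, 3 differences of a member minus an inhibitor were higher in GC than in naive samples. The Casp8 signal lay above that of Cflar and farther from it in GC samples. Those of Casp9 and Apaf1 lay below that of Xiap and nearer to it in GC samples. Casp8 is paired with Cflar, which competes with it, and Casp9 and its scaffold Apaf1 with Xiap, which blocks Casp9. These pairs were chosen after the values were seen and are given as a description, with the naive mean set to 0. The difference of Casp8 minus Cflar was 0.61 ± 0.22 (SD, n = 3) in B1-8 and 0.78 ± 0.17 (n = 3) in V23, with naive arrays between −0.11 and 0.13; Casp8 itself did not pass the test, and the fall is that of Cflar. That of Casp9 minus Xiap was 0.84 ± 0.18 in B1-8 and 0.60 ± 0.11 in V23, and that of Apaf1 minus Xiap 0.66 ± 0.12 and 0.91 ± 0.20. In all 3 pairs every GC array was above every naive array. For the pairs with Xiap this follows from the separation of each gene given above and adds nothing to it. Those pairs also rest on 1 of the 7 Xiap probe sets, which differ in sign among themselves. The pair with Cflar rests on 1 probe set of a gene for which 2 of 5 were not called.

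The 2 GC lines were compared with naive cells through the same 4 naive arrays, so that their calls are not independent. In B1-8, 2 of 8 members rose (Casp2 and Casp9) and 2 fell (Cflar and Xiap), against 16.4% and 17.3% of all tested genes (33.7% either way). In V23, 2 rose (Casp2 and Apaf1) and 2 fell (Cflar and Xiap), against 18.2% and 19.7% (37.9% either way). Casp2 was thus higher, and Cflar and Xiap lower, in both lines.

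**Figure D2:**
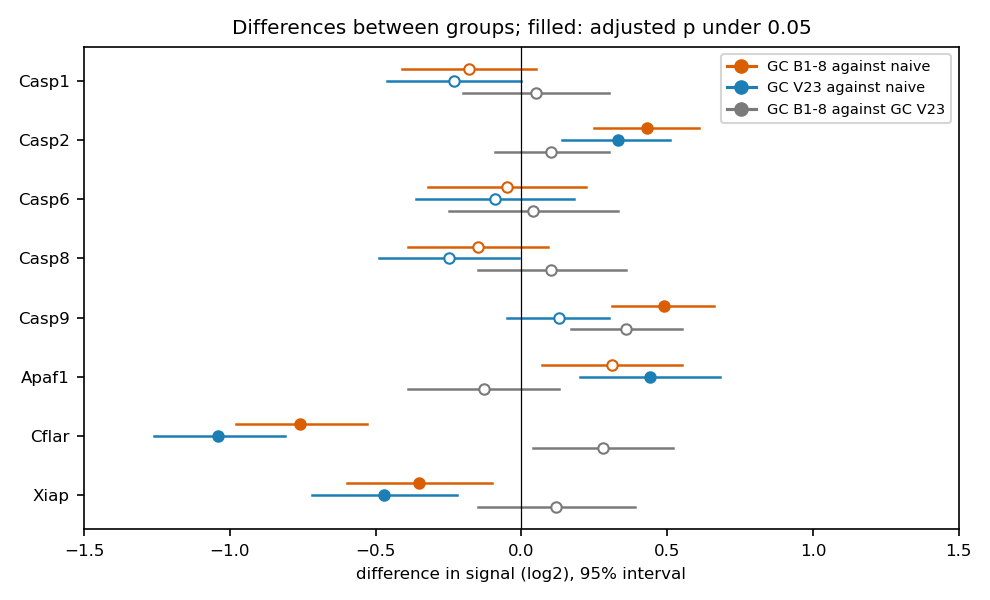
Difference in signal (log2) between groups for each gene, as the fitted value with its 95% interval, for GC B1-8 and GC V23 against naive and for GC B1-8 against GC V23. Filled points have an adjusted p under 0.05 (limma, over all tested genes). Cflar lies farthest from 0, at −0.76 and −1.04, and no difference between the GC lines is filled.

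Directly between the lines, 0 of 8 members passed the test (limma), where 0.0233% of all genes did (0.00581% higher and 0.0174% lower in B1-8), and 2 of 8 had an unadjusted p under 0.05, against 7.72% of all genes. These 2 were Casp9, higher in B1-8 by 0.36 ± 0.08 (95% interval 0.17 to 0.55, unadjusted p = 0.00196, adjusted p = 0.329), and Cflar, higher in B1-8 by 0.28 ± 0.10 (0.04 to 0.52, unadjusted p = 0.0259, adjusted p = 0.586). For both, all 3 B1-8 arrays lay above all 3 V23 arrays. For Casp2 this held only beyond the digits printed, with the nearest arrays of both lines at 12.11. Its difference was 0.10 ± 0.09 (−0.09 to 0.30, limma adjusted p = 0.818). How many of all tested genes separate the lines in this way was not counted, so the order of the arrays is only a description. For Casp1, Casp6, Casp8, Apaf1 and Xiap the arrays of the lines overlapped, with differences between −0.13 and 0.12. Neither the Casp9 call in B1-8 alone nor the Apaf1 call in V23 alone is therefore shown to be a difference between the lines.

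The 8 genes have 22 probe sets in all, and the ones not used above agree for some genes and not for others. In a fit of all probe sets with 1 symbol, Apaf1 rose on both of its probe sets, by 0.37 ± 0.10 (1452870_at, adjusted p = 0.016) and 0.58 ± 0.10 (1450223_at, adjusted p = 0.0027, limma) for the mean of both GC groups. Casp9 rose on 2 of 3. Its difference was larger on the dimmer 1426125_a_at, at 1.29 ± 0.14 (adjusted p = 1.87e-04), than on the probe set used, at 0.31 ± 0.08 (adjusted p = 0.0128); the third, 1457816_at, was at 0.59 ± 0.26 (adjusted p = 0.106). On 1426125_a_at the signal went from 7.07, 7.12, 7.22 and 6.52 in naive to 8.28, 8.41 and 8.21 in B1-8 and 8.18, 8.30 and 8.27 in V23 samples. There the arrays of the lines overlapped, and their difference was 0.05 ± 0.18, unlike the 0.36 on the probe set used.

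**Figure D3:**
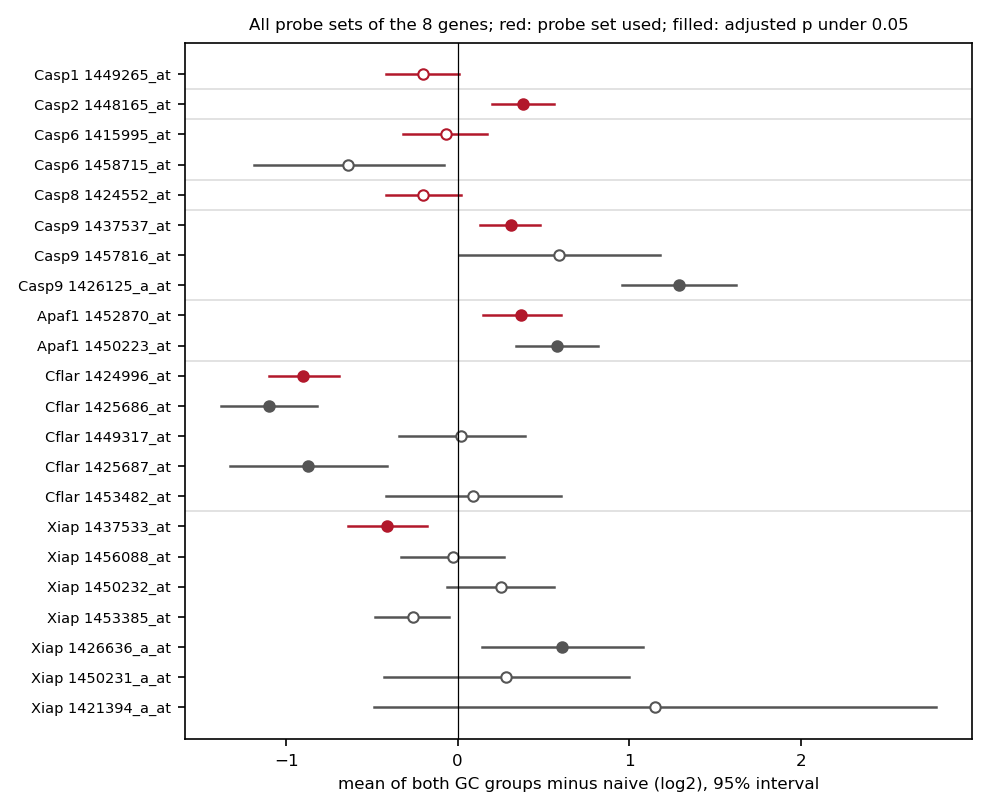
Difference of the mean of both GC groups from naive (log2, 95% interval) for each of the 22 probe sets of the 8 genes, with the probe set used in red and filled points at an adjusted p under 0.05 (limma over all probe sets with 1 symbol). Apaf1 and Casp9 probe sets lie on the same side of 0, 3 of 5 Cflar probe sets are filled and below 0, and Xiap probe sets lie on both sides.

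Cflar divided into 2 sets. Beside the one used, it fell by 1.10 on 1425686_at (SE 0.12, limma adjusted p = 1.86e-04) and by 0.87 on 1425687_at (SE 0.20, adjusted p = 0.00957), each with every GC array below every naive array. On 1449317_at the difference was 0.02 ± 0.16 (adjusted p = 0.926) and on 1453482_at 0.09 ± 0.22 (adjusted p = 0.789), with overlapping arrays. The files do not say which Cflar transcripts each probe set detects. Xiap disagreed most: of its 7 probe sets, 1 fell (the one used, at −0.41 ± 0.10), 1 rose (1426636_a_at, at 0.61 ± 0.21, adjusted p = 0.0484) and 5 did not pass. Of these, 1453385_at was on the same side as the one used, at −0.26 ± 0.10 (adjusted p = 0.0605), and in B1-8 the values were −0.34 ± 0.11 (adjusted p = 0.0537) and, on the one used, −0.35 ± 0.12 (adjusted p = 0.0601 in this fit). The one that rose was dim, at 5.73 ± 0.26 in naive (n = 4), 5.92 ± 0.46 in B1-8 (n = 3) and 6.75 ± 0.27 in V23 samples (n = 3), while the one used was the brightest of the 7. Casp6 has a second, dimmer probe set, 1458715_at, at −0.64 ± 0.24 for the mean of both lines (limma adjusted p = 0.0717). On it Casp6 was lower in V23, at −0.97 ± 0.29 (adjusted p = 0.0303), with all V23 arrays below all naive arrays, and the difference in B1-8 was −0.30 ± 0.29 (adjusted p = 0.489). Between the lines it was 0.67 ± 0.31 (adjusted p = 0.723). Casp1, Casp2 and Casp8 have 1 probe set each and no second reading.

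The other genes of these pathways were taken from 6 lists, with 49 of 56 genes tested and 7 not analysed here. The lists were written with earlier results of these data known. For the mean of both GC groups 13 rose, 11 fell and 25 did not pass, where 20.5% and 21% of all genes did. Their median difference was 0.00, against 0.06 over all genes.

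**Figure D4:**
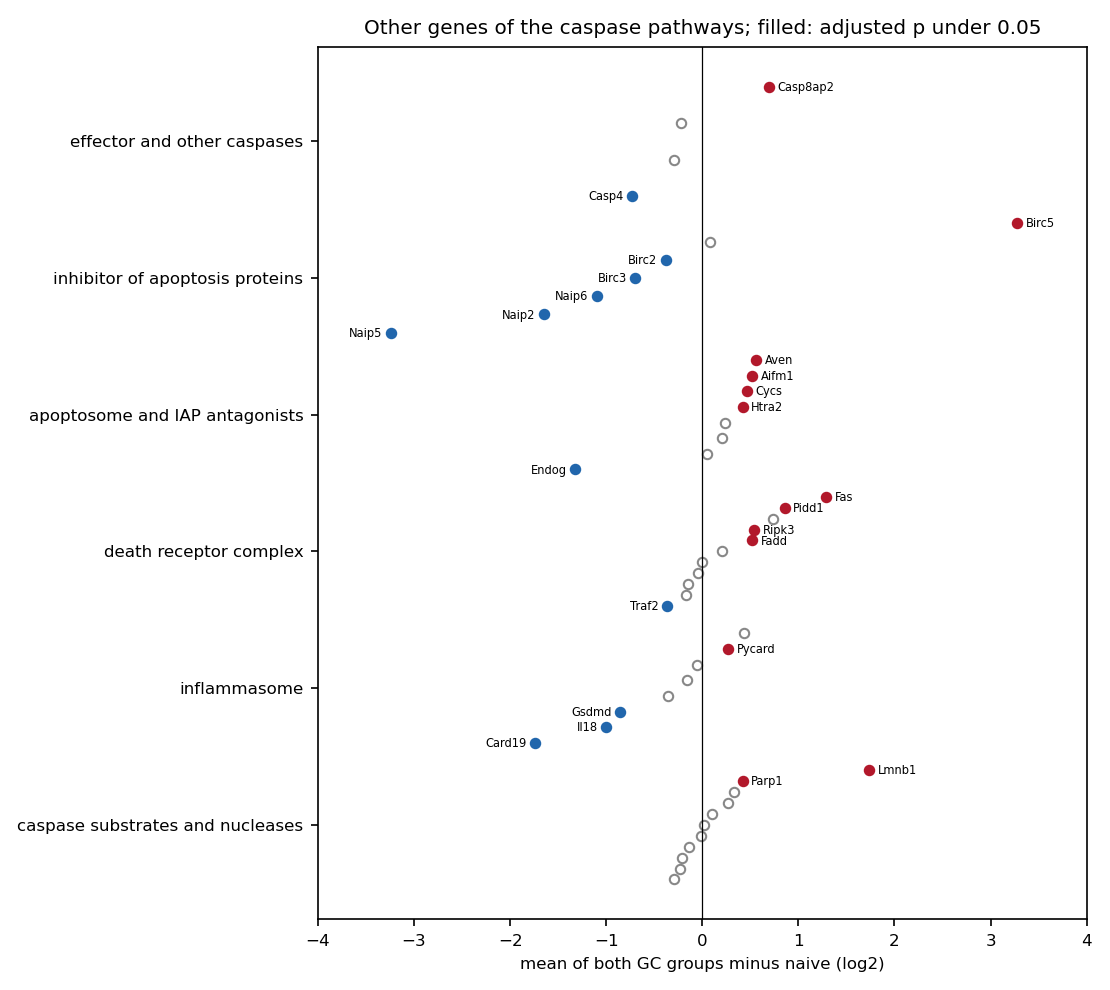
Difference of the mean of both GC groups from naive (log2) for the 49 tested genes of the 6 lists, each gene 1 point, sorted within its list. Filled and named points have an adjusted p under 0.05 (limma over all tested genes). Of the inhibitor of apoptosis proteins 5 lie below 0 and Birc5 far above it, at 3.28.

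Among the inhibitor of apoptosis proteins, relatives of Xiap, 5 of 7 fell and 1 rose (median difference −0.70). Birc3 and Birc2, ubiquitin ligases of the TNF receptor complex, went from 12.86 ± 0.08 and 11.99 ± 0.06 in naive to 12.23 ± 0.21 and 11.60 ± 0.14 in B1-8 and 12.09 ± 0.11 and 11.63 ± 0.08 in V23 samples (n = 4, 3 and 3). Birc3 fell by 0.70 (SE 0.10, limma adjusted p = 5.41e-04). Naip2, Naip5 and Naip6, inflammasome sensors, fell, with differences of −1.65, −3.24 and −1.10; they are close paralogs, and their probe sets may share signal. Birc5, which encodes survivin, a protein of the mitotic chromosomal passenger complex, rose by 3.28 ± 0.26 (adjusted p = 2.23e-05), beside the 7 mitosis genes described above.

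Genes at the mitochondrial step rose in 4 of 8 cases and fell in 1; the median difference was 0.33. Cycs, which encodes cytochrome c, the ligand of Apaf1, went from 12.76 ± 0.12 in naive to 13.17 ± 0.09 in B1-8 and 13.30 ± 0.15 in V23 samples, with all GC arrays above the naive ones, and rose by 0.47 ± 0.09 (limma adjusted p = 0.00293). The flavoprotein Aifm1 rose by 0.52 ± 0.08 (adjusted p = 5.69e-04). Aven, an inhibitor of Apaf1, rose by 0.56 ± 0.11 (adjusted p = 0.00281) for the mean of both lines, by 0.92 ± 0.13 in V23 (adjusted p = 4.90e-04), and was at 0.19 ± 0.13 in B1-8 (adjusted p = 0.298). Its difference between the lines was −0.74 ± 0.13 (adjusted p = 0.252). Endog, a mitochondrial nuclease, fell by 1.32 (SE 0.09, adjusted p = 1.27e-05). Of the Xiap antagonists, Htra2 rose by 0.42 ± 0.11 (limma adjusted p = 0.0132), with all GC arrays above the naive ones. Diablo was at 0.05 ± 0.11 (adjusted p = 0.746) and Septin4 at 0.24 ± 0.19 (adjusted p = 0.354), both with overlapping arrays.

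At the death receptor, 4 of 11 genes rose and 1 fell; the median difference was 0.21. Fas, the receptor upstream of Casp8, rose by 1.29 ± 0.16 (limma adjusted p = 2.49e-04), and Pidd1, which activates Casp2 in the PIDDosome, by 0.86 ± 0.15 (adjusted p = 0.00143). Ripk3, a necroptosis kinase, rose by 0.54 ± 0.07 (adjusted p = 4.01e-04), and the adaptor Traf2 fell by 0.37 (SE 0.12, adjusted p = 0.0372), though in neither line alone (adjusted p = 0.103 in B1-8 and 0.0571 in V23). Of the genes listed with the inflammasome, not all of them parts of it, 3 of 8 fell and 1 rose (median difference −0.26). The neutrophil markers were at 11.40 to 13.77 in naive and 15.21 to 15.92 in GC samples, and their part was not tested. Gsdmd, the pore-forming substrate of Casp1, fell by 0.86 (SE 0.13, adjusted p = 6.95e-04) and the cytokine Il18, another substrate, by 1.00 (SE 0.25, adjusted p = 0.0122), as did Card19 by 1.74 (SE 0.50, adjusted p = 0.0219), while the adaptor Pycard rose by 0.27 ± 0.10 (adjusted p = 0.0496). Il18 and Card19 passed in V23 (adjusted p = 0.00987 and 0.0218) and not in B1-8 (0.0941 and 0.112), Pycard in neither, and none of the 3 between the lines (0.755, 0.832 and 0.984).

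In the list of other caspases, which also holds the Casp8 partner Casp8ap2, 1 of 4 genes rose and 1 fell. Casp4, an inflammatory caspase related to Casp1, fell by 0.73 (SE 0.18, limma adjusted p = 0.0109), and Casp8ap2, which binds the Casp8 complex and also acts in histone gene expression, rose by 0.69 ± 0.15 (adjusted p = 0.00502). Casp12 and Casp14 were at −0.29 and −0.22 (adjusted p = 0.702 and 0.341). Of 11 caspase substrates and nucleases 2 rose and 0 fell (limma), and the median difference was 0.02. Lmnb1, a nuclear lamin, rose by 1.74 ± 0.17 (limma adjusted p = 6.06e-05). Lmna, another lamin gene of the list, was at 0.02 ± 0.19 (adjusted p = 0.935). Parp1, a DNA repair enzyme cleaved in apoptosis, rose by 0.42 ± 0.10 (adjusted p = 0.00717). Dffa, the inhibitor of the apoptotic nuclease, was at 0.27 (adjusted p = 0.0742), and the channel Panx1, opened by caspase cleavage, at −0.29 (adjusted p = 0.0744).

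Over the 10 arrays the member most unlike another was Cflar beside Apaf1 (Pearson r = −0.91), and the most alike were Cflar and Xiap (r = 0.90); these values describe 10 arrays that fall into 3 groups, and carry no test. Measured the same way, the genes whose signal was most like that of Cflar were Lratd2 and Rbbp9 (r = 0.994 each), which differed between GC and naive by −1.31 and −5.16. Those most like Casp2 were Fam78a and Uvrag (0.987 and 0.986), most like Casp9 Asb7 and Srpk2 (0.95 and 0.945) and most like Apaf1 Paics and Scfd1 (0.984 and 0.97). Tob2 and Abhd17b were most like Xiap (0.985 and 0.981), Ngdn and Wwp1 most like Casp1 (0.932 and 0.921), 3110021A11Rik and Sele most like Casp8 (0.959 and 0.933), and Myo1h and 4933427E11Rik most like Casp6 (0.904 and 0.888). Cflar and Casp8 lie next to each other on chromosome 1 in RefSeq, with 1 annotated long noncoding RNA gene between them.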

How the data were processed

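Each of the 10 samples is 1 array. The authors deposited 1 log2 signal per probe set and array. The authors used GCRMA, per the submitters' processing notes, with no version given; the values do not have its form, since they have no floor and the unlogged signals, without the top and bottom 2%, averaged 500.0 on all arrays, as in MAS5 scaling. They were used as deposited. Of 45101 probe sets, 34958 are assigned to 1 symbol, 932 to several and 9211 to none. For each of 18194 symbols the probe set with the highest mean was used, and the 17204 genes that exceeded log2 4 in 3 or more samples entered limma 3.58.1 in R 4.3.3 (1 model of 3 group means, 7 residual and 1.46 prior degrees of freedom, two-sided, Benjamini-Hochberg over all tested genes, threshold 0.05). No pair of arrays shared more than 1% of their values. Arrays give no counts, so the precision rests on their number and on brightness: residual SDs had a median of 0.889 where the mean was under log2 6 and 0.118 where it was over log2 10. The members and gene lists were chosen with earlier results of these data known. All 8 members are named, with up to 4 genes per list by smallest p and the 2 genes most correlated with each member. Birc2, Naip5, Htra2, Diablo, Septin4 and Lmna were added for their roles after their values were seen. The test was tried on simulated data with 200 changed genes. Of 1.5-fold changes it recovered 11.5% in B1-8 against naive, 7% in V23 against naive and 0% between the lines. Of 2-fold changes it recovered 43.5%, 38% and 46%. Far more genes than 200 were called against naive in the real data, so these shares need not apply there. A member that did not pass is not thereby shown to be unchanged. Alternatives covered the filter, the probe sets, scaling, a floor, the moderation, the samples fitted, a replicate block and each array left out; leaving out naive replicates 2 and 4 together was added after the data were seen.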

Additional observations from a re-analysis of the deposited data

How the results depend on the processing

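Casp2, Casp9, Cflar and Apaf1 kept their sign against naive under every alternative run. Median centring shifted the all-gene median difference to 0.16 from 0.06 for both GC groups together (to 0.12 from 0.05 in B1-8, to 0.19 from 0.06 in V23), and the genes called from 3521 higher and 3619 lower to 4165 and 2912 (3041 and 2408 in B1-8, 3824 and 2536 in V23). Quantile normalization gave 4113 and 3179 (3212 and 2677 in B1-8, 3748 and 2949 in V23). The members called lower went from 2 to 1 in B1-8, V23 and their mean with centring, in B1-8 and the mean with the mean of all probe sets, and in B1-8 with the compared groups alone. They went to 4 for the mean with quantile normalization and with an intensity trend. Leaving out single arrays gave 1 to 2 members lower in B1-8. The members called higher in V23 went from 2 to 1 without naive replicates 2 and 4 and under the replicate block. Between the lines, 1 gene was higher and 3 lower; the counts were 0 and 0 with the mean of probe sets, centring, the replicate block, the compared groups alone and omission of naive replicates 2 and 4, 12 and 5 with an intensity trend, and 2 higher with the floor; without single arrays they were 0 to 9 and 0 to 2, the 9 without V23 replicate 2. Over all tested genes, same-numbered samples did not deviate together (correlations −0.02 to 0.07). This cannot exclude a pairing that acts on few genes, and the labels do not say whether the numbers pair samples. With the replicate block the Casp2 call in V23 ended (0.32, limma adjusted p = 0.0532).

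The sign turned for Xiap with the mean of its probe sets (0.26, 0.19 and 0.23 in B1-8, V23 and their mean). Casp6, near 0, turned with quantile normalization (0.05, 0.02 and 0.04), centring (0.02, 0.04 and 0.03, and −0.02 between the lines), without naive replicates 2 and 4 in B1-8 (0.01), and without single arrays (ranges −0.11 to 0.02 in B1-8, −0.19 to 0.01 in V23 and −0.06 to 0.14 between the lines; it turned without B1-8 replicate 1, V23 replicate 2, and B1-8 replicate 2 or V23 replicate 2). With the mean of its probe sets it passed in V23 (−0.53, adjusted p = 0.021), with −0.35 (adjusted p = 0.0504) for the mean of both lines and 0.36 between the lines. Casp1 turned between the lines with centring (−0.01). The cause was not tested. The mean of both lines has no fit of the compared groups alone, since it uses all groups.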
